A study of Mus musculus with 9 samples.

Results

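The mitochondrial ribosomal protein genes, Mrpl for the large subunit and Mrps for the small, were measured in the hearts of mice with and without a working RORalpha receptor. They were chosen by name: every non-control probe whose accession belongs to a mouse gene with a symbol of Mrpl or Mrps followed by a number was taken, and where a gene had several probes the one with the highest mean signal was used. This gave 78 genes, read by 116 probes, among 27773 genes tested, of which 17905 have a symbol here and 9868 are counted under their accession or probe name. RefSeq lists 84 symbols of that form, and the rest, which are pseudogenes, were not analysed here. All 78 genes passed the filter on dim probes (4 or more of the 9 arrays well above background), and 74 of them were well above background on every array with the probe used. The exceptions were Mrps15 (3 of 4 RORasg/sg hearts), Mrpl47 and Mrpl48 (2 of 4) and Mrps23 (1 of 4), whose lowest values are therefore close to background.

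Hearts were taken from 5 wild-type animals (WT) and 4 homozygous for staggerer (RORasg/sg), a deletion within Rora that removes function of this nuclear receptor throughout the body, so heart-specific and systemic loss are not separated. All animals were C57BL/6 males of 3 to 4 months, untreated, weaned at 3 weeks and kept on NIH31 chow. One array was run per heart, after amplification from 70 ng of total RNA. The comparison asked how heart transcripts differ when RORalpha is lost.

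Mitochondria carry their own ribosome, which translates the few proteins encoded by mitochondrial DNA, all of them core subunits of the respiratory chain and the ATP synthase. Its RNAs are mitochondrial transcripts, whereas each of its proteins is encoded in the nucleus, made in the cytosol and imported, so the particle needs matched output from many scattered genes. Some of these proteins descend from the bacterial ribosome and others were added in mitochondria. The heart, which depends on oxidative phosphorylation, is rich in them. In other tissues the nuclear respiratory factors NRF1 and GABP (an ETS factor) are known regulators of such genes.

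Promoter sequence is shown for 2 reasons: to set out the shared start region of Mrps11 and Mrpl46, which are among the genes of smallest p in opposite directions, and to show the windows that hold motifs of both known regulators. Sequences are from RefSeq, build GRCm38.p6, and run 5′ to 3′ on the strand of the gene named; capitals mark searched motifs on either strand. Mrps11 and Mrpl46 start 41 bases apart and run away from each other, so the sequence between the starts, chr7:78783090-78783130, serves both. No searched motif lay in those 41 bases. The full windows of 250 bases used for the percentages below run on into the neighbouring gene, and there that of Mrps11 holds the YY1 core and that of Mrpl46 TATAAA. No searched motif lay in the 250 bases before the start of Mrps5 (chr2:127587176-127587425, plus strand).
Mrps11 to Mrpl46 interval, plus strand: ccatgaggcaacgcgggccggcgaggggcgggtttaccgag
Mrps5: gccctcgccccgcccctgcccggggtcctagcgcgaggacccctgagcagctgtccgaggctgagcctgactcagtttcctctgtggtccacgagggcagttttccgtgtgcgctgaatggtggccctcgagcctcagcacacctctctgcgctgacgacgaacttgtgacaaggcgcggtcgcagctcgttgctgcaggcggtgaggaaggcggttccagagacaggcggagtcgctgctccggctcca

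Mrpl17 (chr7:105811088-105811337, minus strand) and Mrpl22 (chr11:58171414-58171663, plus strand) were chosen after the search, as the windows that held both the NRF1 core GCATGCGC and the ETS core CCGGAAG. In both the NRF1 core is on the other strand and reads GCGCATGC as printed. In Mrpl17 it lies 11 to 4 bases upstream of the start and the ETS core 237 to 231 bases upstream. In Mrpl22 they lie 33 to 26 and 53 to 47 bases upstream.
Mrpl17: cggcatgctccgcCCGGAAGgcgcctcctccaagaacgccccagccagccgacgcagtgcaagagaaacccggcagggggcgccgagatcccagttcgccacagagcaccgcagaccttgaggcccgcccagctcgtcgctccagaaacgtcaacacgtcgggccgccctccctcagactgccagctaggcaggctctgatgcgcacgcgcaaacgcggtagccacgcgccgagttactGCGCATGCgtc
Mrpl22: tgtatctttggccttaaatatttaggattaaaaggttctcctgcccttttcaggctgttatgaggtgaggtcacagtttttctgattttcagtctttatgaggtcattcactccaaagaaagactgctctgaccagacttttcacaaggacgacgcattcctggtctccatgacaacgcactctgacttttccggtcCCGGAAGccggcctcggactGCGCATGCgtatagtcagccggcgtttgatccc

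Across the 75 windows of 250 bases found for 69 of the 78 genes (both strands searched, each motif counted on its own), the NRF1 core occurred in 10.7% of windows, against 2.26% of all 32851 windows and 2.93% of those of protein-coding genes. The ETS core occurred in 24% of the family's windows, against 6.91% of all. AAGATGGCG, a core of the YY1 site, was in 2.67% against 0.606%. Cores of the sites bound by ROR receptors themselves occurred at shares close to those of all windows: TAGGTCA in 1.33% (Mrpl53) against 2.23%, and TGGGTCA in 4% (Mrpl18, Mrpl30 and Mrps18c) against 3.24%. CCAAT was in 37.3% against 33.8% and TATAAA in 6.67% against 12.4%. Median GC content was 58.4%, against 55.6% in protein-coding genes. These matches are letters in a window and were not tested as binding sites.

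A start facing away from a neighbour's start within 1000 bases was common in the family. It was seen for 24 of 69 genes (34.8%), against 1483 of 17492 protein-coding genes (8.48%). Several partners also serve mitochondria. Mrps12 starts 146 bases from Sars2, the mitochondrial seryl-tRNA synthetase, Mrpl43 starts 115 bases from Twnk, the mitochondrial DNA helicase, and Mrpl47 starts 307 bases from Ndufb5, a complex I subunit. Mrps11 and Mrpl46 were the 1 pair in which both genes were mitochondrial ribosomal.

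The arrays differed in brightness, in part along with genotype. The 75th percentile of signal ranged from 436 to 684 in WT and from 264 to 773 in RORasg/sg; WT 4 and RORasg/sg 2, 3 and 4 were the 4 dimmer arrays (under 500). Gene by gene, RORasg/sg 1 correlated with the brighter WT arrays at a median r of 0.962, and RORasg/sg 2, 3 and 4 at 0.861, 0.81 and 0.757. All values below are log2 of signal over the array's own 75th percentile, so 0 is that percentile, and a difference is RORasg/sg minus WT. Rora itself was at 2.87, 3.29, 2.88, 1.51 and 3.06 in WT 1 to 5 and at 0.08, -2.71, -1.01 and -1.99 in RORasg/sg 1 to 4, with no overlap between genotypes. The summed level of 10 heart muscle markers, in multiples of the 75th percentile, was 777 to 912 in WT and 861, 933, 445 and 434 in RORasg/sg 1 to 4.

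No mitochondrial ribosomal protein gene passed the test. With limma and Benjamini-Hochberg adjustment over all 27773 genes, 0 of 78 had an adjusted p below 0.05 (lowest 0.375), where 0.0036% of all genes (1 gene, lower in RORasg/sg) did. That gene was not Rora, whose difference of -4.13 (SE 0.61) had a limma adjusted p of 0.224. At an unadjusted p below 0.05, the mean was higher in RORasg/sg for 3 genes and lower for 11, or 3.85% and 14.1% of the family, beside 4.94% and 6.62% of all genes (11.6% in either direction). In 0 of 78 did the 4 RORasg/sg hearts all lie on one side of the 5 WT hearts, beside 1.12% of all genes with RORasg/sg wholly higher and 1.71% wholly lower. That last count was 27 without RORasg/sg 1 (13 higher and 14 lower, beside 27.2% and 7.72% of all genes) and 6 without WT 4 (2 higher and 4 lower, beside 2.32% and 4.29%). It was 4 without RORasg/sg 2 (all lower, beside 3.21%), 3 without RORasg/sg 3 (2 higher and 1 lower, beside 1.51% and 2.18%) and 1 without WT 1 (lower, beside 2.06%). The standard error of a difference had a median of 0.473 over the family (0.274 to 1.47), so changes of modest size could not have been resolved. In RNA from whole hearts, fewer cells of a type and less RNA per cell cannot be told apart.

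The family's median difference was 0.06, from -2.93 (Mrpl15) to 1.53 (Mrps11), with quartiles of -0.83 and 0.45. All genes together had a median of 0.41, so the family's median lay 0.35 lower on this scale (-0.35); over arrays, the same gap had a pooled SD of 0.316 within genotypes. A total of 43 genes had a difference above 0 and 25 one above the all-gene median. The zero point depended on the scaling. The all-gene median moved from 0.41 to 0.34 with each array's median as the reference, to 0.30 with quantile normalization and to -0.17 with no scaling, and the number of family members above 0 moved from 43 to 38, 33 and 14. Relative to all genes the family stood at -0.35, -0.35, -0.48 and -0.35 in these settings.

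**Figure D1:**
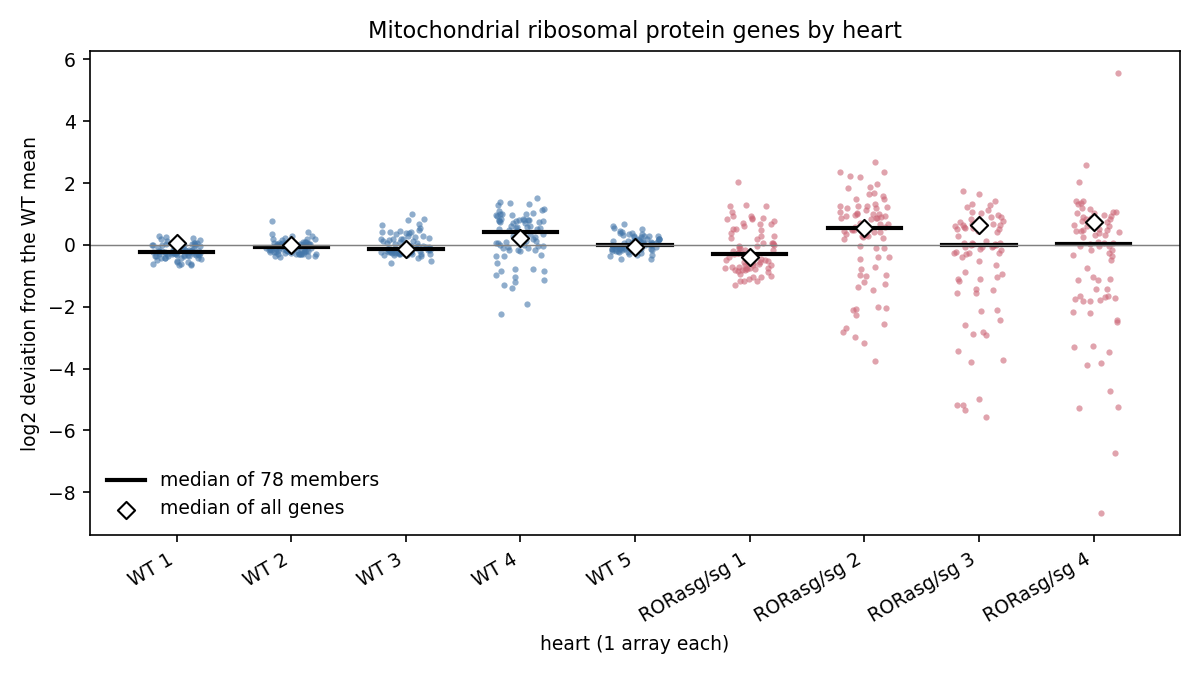
Log2 deviation of each of the 78 genes from its WT mean (vertical axis) in each heart (horizontal axis); bars are the median over the family and diamonds the median over all genes tested. The WT points lie close to 0 except in WT 4, RORasg/sg 1 has a median of -0.28, and RORasg/sg 2, 3 and 4 carry long lower tails, with medians of 0.54, -0.01 and 0.03.

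Heart by heart, the family did not move as a block. Its median deviation from the WT mean was -0.23, -0.07, -0.13, 0.43 and 0.00 in WT 1 to 5, and -0.28, 0.54, -0.01 and 0.03 in RORasg/sg 1 to 4. The all-gene median in those 4 hearts was -0.39, 0.55, 0.65 and 0.75, so the family stood at 0.11, -0.01, -0.67 and -0.72 relative to all genes. RORasg/sg 3 and 4, with the wide gaps, are also the hearts with summed muscle markers of 445 and 434, and the part of these markers in the gap was not tested. Slides were told apart by array barcode, not from the sample labels, and WT 5, alone on slide 3, enters no within-slide value. Within slide 1 (WT 1 and 2, RORasg/sg 1 and 2) the family's median difference was 0.27 against 0.06 for all genes. Within slide 2 (WT 3 and 4, RORasg/sg 3 and 4) it was -0.12 against 0.67.

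The RORasg/sg hearts differed among themselves more than the WT hearts did. Their arrays also spanned a wider range of brightness (75th percentile 264 to 773, against 436 to 684 in WT). The part of brightness in the spread was not tested. The median SD over hearts was 0.427 in WT and 0.928 in RORasg/sg, and it was larger in RORasg/sg for 77 of 78 genes; over all genes the medians were 0.511 and 1.07, and it was larger for 23911 of 27773. RORasg/sg 1 lay below every WT heart for 40 genes and above for 19 (51.3% and 24.4%, against 42.6% and 12.6% of all genes). RORasg/sg 2 lay above for 40 and below for 19 (51.3% and 24.4%, against 45.6% and 17.9%). RORasg/sg 3 was above for 17 and below for 27 (21.8% and 34.6%, against 48.7% and 19.1%), and RORasg/sg 4 above for 22 and below for 30 (28.2% and 38.5%, against 51.5% and 20.9%). RORasg/sg 2, 3 and 4 together were above every WT heart for 13 genes (16.7%, against 27.2% of all genes) and below for 14 (17.9%, against 7.72%).

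By subunit, the 51 large-subunit genes had a median difference of 0.12 and the 26 small-subunit genes -0.08; Mrps36 belongs to neither. By descent, the 45 genes of bacterial ancestry had a median of -0.07 and the 32 added in mitochondria 0.18. The 22 large-subunit genes added in mitochondria stood at 0.44, beside 0.41 for all genes, and 12 of them lay above the all-gene median. The 10 small-subunit genes added in mitochondria stood at -0.32, and 0 of 10 lay above it. These medians are descriptions, and the differences between classes were not tested.

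**Figure D2:**
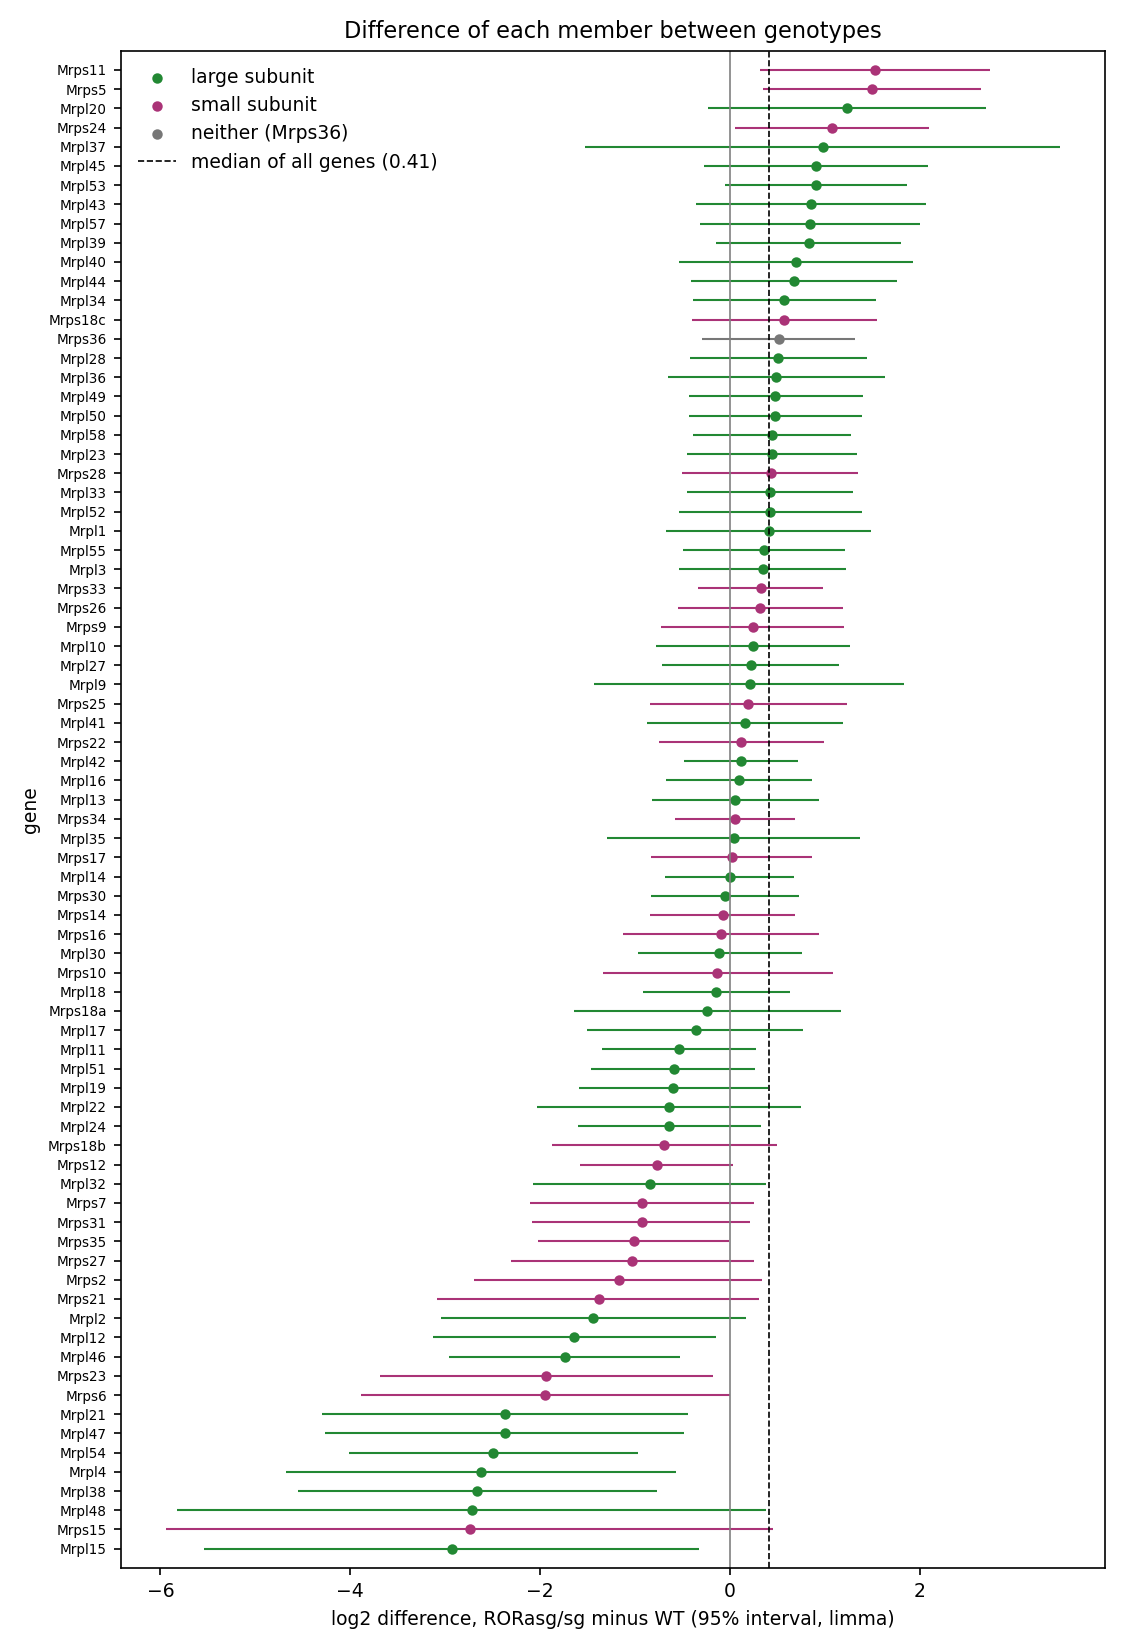
Difference between genotypes for each gene on the log2 scale (horizontal axis, RORasg/sg minus WT), with its 95% interval from limma, coloured by subunit and sorted; the dashed line is the all-gene median of 0.41. The lower end, to -2.93, reaches farther from 0 than the upper end, to 1.53.

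Among genes with a lower mean in RORasg/sg, Mrpl54 had the smallest p. Mrpl54 is a large-subunit protein without a bacterial counterpart. It was at 3.51, 3.49, 3.84, 2.62 and 3.80 in WT 1 to 5 and at 3.40, -0.30, -0.26 and 1.02 in RORasg/sg 1 to 4. The difference was -2.49 (SE 0.698, n = 5 and 4), a 5.61-fold lower mean, with an adjusted p of 0.375 in limma. RORasg/sg 1 sat among the WT hearts and the other 3 sat below all of them. Within slide 1 the difference was -1.95 and within slide 2 it was -2.85.

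Next by p were Mrpl46 and Mrpl38, among the proteins of the central protuberance, the crest of the large subunit that faces the small one. They were picked by p and do not stand for that structure as a whole. Mrpl46 was at 2.04, 1.74, 1.79, 3.04 and 1.58 in WT and at 1.79, -0.78, -0.06 and 0.25 in RORasg/sg, a difference of -1.74 (SE 0.560, limma adjusted p = 0.385). RORasg/sg 1 equalled WT 3 and the other RORasg/sg hearts lay below all WT. Mrpl38 was at 0.21, 0.50, 0.58, 1.19 and 0.70 in WT and at 0.93, -1.42, -4.34 and -3.25 in RORasg/sg, a difference of -2.66 (SE 0.868, limma adjusted p = 0.395). Here RORasg/sg 1 was above 4 of the 5 WT hearts. Within slides 1 and 2, Mrpl46 differed by -1.38 and -2.32 and Mrpl38 by -0.60 and -4.68.

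Mrpl4 and Mrpl47, counterparts of bacterial L4 and L29, sit along or beside the tunnel through which the new chain leaves. Mrpl4 was at 1.27, 0.87, 1.45, 0.76 and 1.22 in WT and at 1.94, -1.56, -4.22 and -2.19 in RORasg/sg, a difference of -2.62 (SE 0.942, limma adjusted p = 0.407). RORasg/sg 1 was the highest of all 9 hearts and the other RORasg/sg hearts were the lowest. Mrpl47 was at -2.08, -1.94, -1.44, -3.34 and -1.83 in WT and at -1.5, -5.09, -4.55 and -6.85 in RORasg/sg, a difference of -2.37 (SE 0.870, limma adjusted p = 0.410). The same 3 hearts were lowest, and 2 of the 4 RORasg/sg values were not well above background. Within slides 1 and 2, Mrpl4 differed by -0.88 and -4.31 and Mrpl47 by -1.29 and -3.31.

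Mrpl15 and Mrpl21 are counterparts of the bacterial large-subunit proteins L15 and L21. Mrpl15 was at 1.44, 1.62, 2.20, -1.01 and 1.83 in WT and at 2.48, -1.33, -3.96 and -4.05 in RORasg/sg. Its difference of -2.93 was the largest in size of the family, with an SE of 1.20 and a limma adjusted p of 0.418. The dimmer arrays of both genotypes were low: WT 4 lay near RORasg/sg 2, and RORasg/sg 1 was the highest heart. Mrpl21 was at 2.41, 2.67, 2.87, 4.02 and 3.13 in WT and at 2.99, 2.04, -2.17 and -0.26 in RORasg/sg, a difference of -2.37 (SE 0.885, limma adjusted p = 0.413). In this gene WT 4 was the highest heart and RORasg/sg 2 only just below the WT range. Within slide 1 the difference was -0.96 for Mrpl15 and -0.02 for Mrpl21, and within slide 2 it was -4.60 and -4.66.

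Mrpl12, the counterpart of the bacterial stalk protein that recruits translation factors, was at 3.09, 3.23, 3.70, 3.40 and 3.71 in WT and at 4.21, 1.31, 0.01 and 1.61 in RORasg/sg. The difference was -1.64 (SE 0.683, limma adjusted p = 0.418), -0.40 within slide 1 and -2.74 within slide 2. RORasg/sg 1 was above every WT heart and the others below every WT heart.

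Of the small subunit, Mrps23 and Mrps35 had the smallest p on the lower side, and both were added in mitochondria. Mrps35 was at 2.55, 2.65, 2.60, 1.64 and 2.93 in WT and at 2.38, 1.51, 1.31 and 0.65 in RORasg/sg, a difference of -1.01 (SE 0.461, limma adjusted p = 0.418), with -0.66 and -1.14 within the slides. WT 4 stood apart from the other WT hearts, close to RORasg/sg 2. Mrps23 was at -2.97, -3.19, -2.70, -2.69 and -3.30 in WT and at -1.91, -5.04, -5.89 and -6.79 in RORasg/sg, with 1 of the 4 RORasg/sg values well above background. Its difference of -1.94 (SE 0.805, limma adjusted p = 0.418) became 0.00 with normexp background correction.

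**Figure D3:**
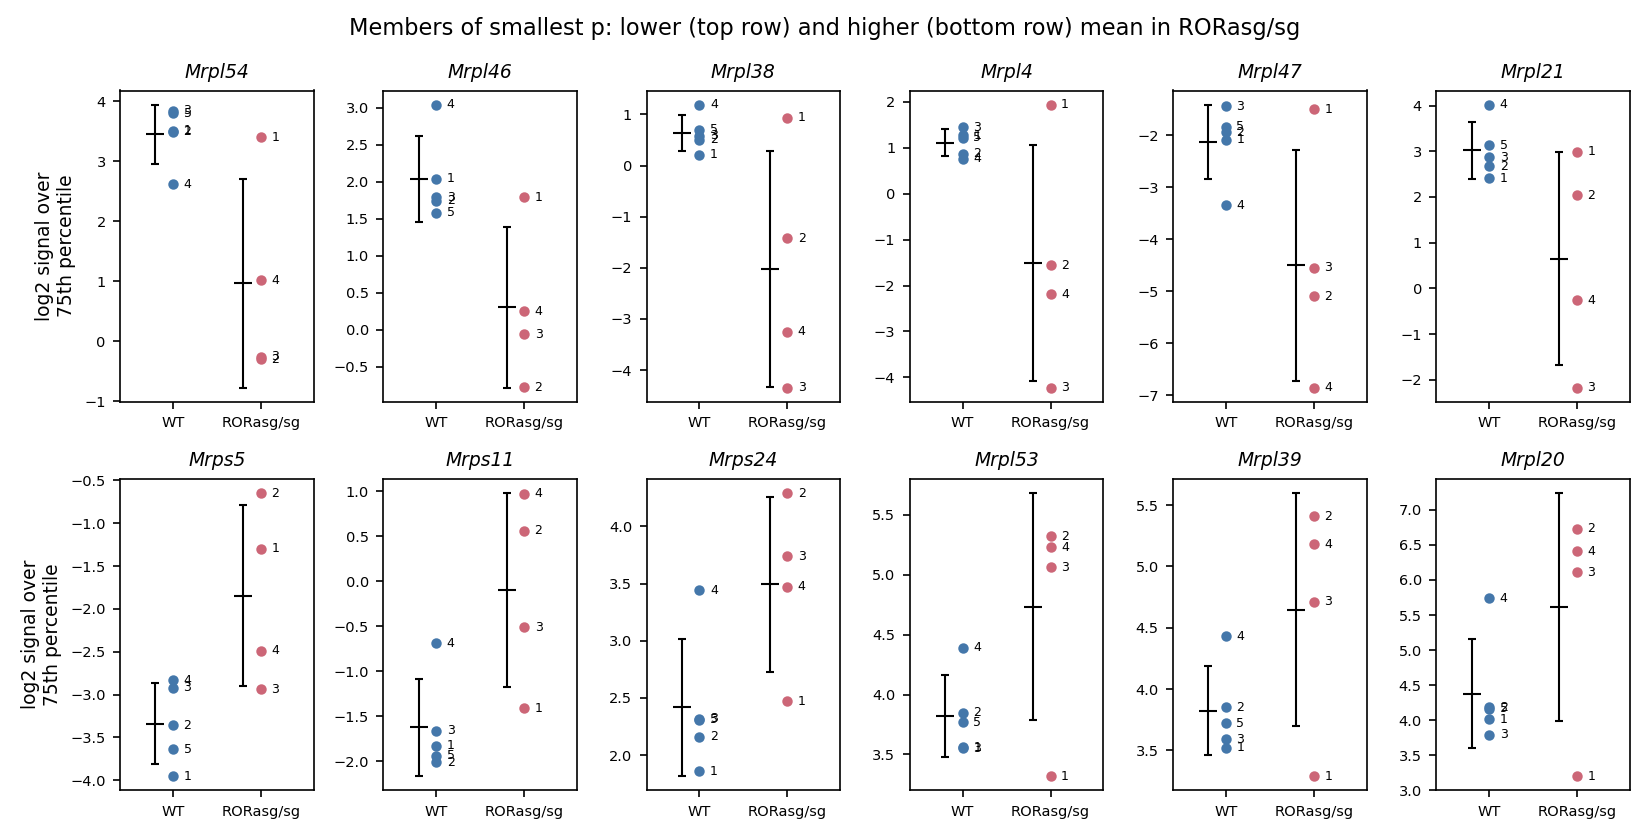
Log2 signal over the array's 75th percentile (vertical axis) in each heart, numbered, for the 6 genes of smallest p with a lower mean in RORasg/sg (top row) and the 6 with a higher mean (bottom row); bars are the genotype mean and SD beside the 5 WT and 4 RORasg/sg hearts. RORasg/sg 1 lies within or above the WT values in the top row, and WT 4 is the highest WT heart in each panel of the bottom row.

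On the higher side the small subunit led. Mrps5, the counterpart of bacterial S5, which lies near the path of the messenger, was at -3.95, -3.36, -2.92, -2.83 and -3.64 in WT and at -1.30, -0.65, -2.94 and -2.49 in RORasg/sg. The difference was 1.5 (SE 0.528, limma adjusted p = 0.401), and here RORasg/sg 1 and 2 were the highest hearts while RORasg/sg 3 lay inside the WT range. Within slide 1 the difference was 2.68 and within slide 2 it was 0.17. The gene's other 2 probes differed by 0.04 and 0.03.

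Mrps11, a platform protein and counterpart of bacterial S11, was at -1.83, -2.01, -1.66, -0.69 and -1.94 in WT and at -1.41, 0.56, -0.51 and 0.97 in RORasg/sg. The difference was 1.53 (SE 0.554, limma adjusted p = 0.407), a 2.89-fold higher mean, with 1.5 within slide 1 and 1.41 within slide 2. WT 4 was above RORasg/sg 1, which is where the genotypes overlapped. Mrpl46, whose start lies 41 bases away across the interval printed above, differed by -1.74, so the pair that shares that start region had means on opposite sides. Of 22 such neighbouring pairs in which both genes were tested, 14 had differences of the same sign and 8 of opposite sign. The same-sign pairs include that of Mrpl14, whose difference was 0.00. The share among unlinked genes was not computed, and 66.6% of all genes had a difference above 0.

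Mrps24, the counterpart of bacterial S3 at the messenger entrance, was at 1.86, 2.16, 2.32, 3.44 and 2.31 in WT and at 2.47, 4.29, 3.74 and 3.47 in RORasg/sg. Its difference was 1.08 (SE 0.471, limma adjusted p = 0.418), 1.37 within slide 1 and 0.73 within slide 2. WT 4 reached the level of RORasg/sg 4, and RORasg/sg 1 lay just above the other WT hearts.

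Of the large-subunit genes with a higher mean, Mrpl53, Mrpl39 and Mrpl20 had the smallest p. Mrpl20, whose bacterial counterpart joins the subunit early in its assembly, was at 4.01, 4.18, 3.79, 5.74 and 4.16 in WT and at 3.20, 6.73, 6.11 and 6.41 in RORasg/sg, a difference of 1.24 (SE 0.672, limma adjusted p = 0.418). RORasg/sg 1 was the lowest of the 9 hearts, and WT 4 was the highest WT heart, still below the other RORasg/sg hearts. Mrpl53, added in mitochondria, was at 3.56, 3.85, 3.55, 4.39 and 3.77 in WT and at 3.32, 5.32, 5.06 and 5.23 in RORasg/sg, a difference of 0.91 (SE 0.442, limma adjusted p = 0.418). Mrpl39 was at 3.52, 3.85, 3.59, 4.43 and 3.72 in WT and at 3.29, 5.41, 4.71 and 5.18 in RORasg/sg, a difference of 0.83 (SE 0.446, limma adjusted p = 0.418). In both, RORasg/sg 1 was lowest, WT 4 was the highest WT heart, and the other RORasg/sg hearts lay above it. Within slides 1 and 2 the differences were 0.87 and 1.5 for Mrpl20, 0.61 and 1.17 for Mrpl53, and 0.66 and 0.93 for Mrpl39.

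Mrpl45, which holds the ribosome to the inner membrane near the tunnel exit, was at 2.64, 2.85, 2.77, 4.03 and 3.07 in WT and at 2.33, 5.05, 4.14 and 4.40 in RORasg/sg, a difference of 0.91 (SE 0.540, limma adjusted p = 0.420). Mrpl57 was at 2.88, 3.42, 3.09, 4.18 and 3.39 in WT and at 2.53, 5.06, 5.05 and 4.30 in RORasg/sg, a difference of 0.84 (SE 0.530, limma adjusted p = 0.423). Mrpl43 was at 2.96, 3.48, 3.38, 4.77 and 3.44 in WT and at 3.06, 5.97, 4.29 and 4.53 in RORasg/sg, a difference of 0.86 (SE 0.558, limma adjusted p = 0.425). For Mrpl45 and Mrpl57, RORasg/sg 1 was the lowest heart and the other RORasg/sg hearts lay above all WT; for Mrpl43, WT 4 exceeded RORasg/sg 3 and 4. The differences within slides 1 and 2 were 0.95 and 0.87 for Mrpl45, 0.65 and 1.04 for Mrpl57, and 1.29 and 0.34 for Mrpl43.

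Mrps36 carries a ribosomal name but is now regarded as an adaptor of the 2-oxoglutarate dehydrogenase complex. It was at 3.48, 3.74, 3.91, 3.59 and 4.05 in WT and at 3.83, 4.70, 3.62 and 4.93 in RORasg/sg, a difference of 0.52 (SE 0.368, limma adjusted p = 0.442) that became -0.06 with no scaling. RORasg/sg 2 and 4 lay above the WT hearts and RORasg/sg 1 and 3 among them.

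Precision differed between genes. Mrpl42, chosen after its values were seen as the gene with the smallest SE, differed by 0.12 (SE 0.274, 95% interval -0.48 to 0.72), and Mrpl14, a counterpart of bacterial L14 at the subunit interface, by 0.00 (SE 0.313, 95% interval -0.68 to 0.68). Further large differences on the lower side, likewise picked with their values known, were Mrps15 at -2.74, Mrpl48 at -2.72, Mrps6 at -1.95, Mrpl2 at -1.44 and Mrps21 at -1.38 (limma adjusted p = 0.418 for each). Also chosen after their values were seen were Mrpl37 and Mrps15, in each of which RORasg/sg 4 was the most extreme heart. Mrpl37 was at 6.17 in RORasg/sg 4 and at 0.90, -1.40 and 0.65 in RORasg/sg 1 to 3. Mrps15 was at -6.87 in RORasg/sg 4 and at 2.20, 2.02 and -1.08 in RORasg/sg 1 to 3. A further heart lay below the WT range in each: RORasg/sg 2 for Mrpl37 (WT 0.14 to 1.01) and RORasg/sg 3 for Mrps15 (WT 1.48 to 2).

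The proteins named Mrps18 are paralogues with separate places in the ribosome: Mrps18c is the counterpart of bacterial S18 in the small subunit, Mrps18b occupies another small-subunit site, and Mrps18a is found in the large subunit. Mrps18c was at 4.62, 4.88, 4.61, 5.75 and 4.82 in WT and at 4.20, 6.57, 5.48 and 5.79 in RORasg/sg, a difference of 0.57 (SE 0.449, 95% interval -0.40 to 1.55). Mrps18b was at -1.99, -2.19, -1.5, -3.03 and -1.54 in WT and at -1.36, -2.82, -2.99 and -3.78 in RORasg/sg, a difference of -0.69 (SE 0.543, 95% interval -1.87 to 0.50). Mrps18a was at 0.69, 0.78, 1.5, -0.63 and 1.07 in WT and at 1.97, 1.01, -0.78 and -0.43 in RORasg/sg, a difference of -0.24 (SE 0.645, 95% interval -1.64 to 1.17). None of the 3 passed the test (limma adjusted p = 0.465, 0.468 and 0.824). In Mrps18c RORasg/sg 1 was lowest of the 9 hearts, and in Mrps18a and Mrps18b it was highest. The signs of Mrps18a and Mrps18b were not stable: within slide 1 their differences were 0.76 and 0.00, and Mrps18a stood at 0.17 without RORasg/sg 3 and 0.05 without RORasg/sg 4.

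The result for the family depended on RORasg/sg 1, the brightest array. Without it, 28 of 78 genes passed the test (15 higher and 13 lower), beside 37.4% of all genes (28.5% higher and 8.89% lower). Of the 28, 19 were large-subunit and 9 small-subunit genes. The family's median difference was then 0.20 and that of all genes 0.68. In 22 of the 28, RORasg/sg 1 lay on the other side of the WT mean from the mean of the remaining RORasg/sg hearts.

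Without RORasg/sg 1, the lower calls included Mrpl15 at -4.33, Mrpl4 at -3.77, Mrpl38 at -3.64, Mrpl54 at -3.30 (SE 0.430, limma adjusted p = 0.00275) and Mrpl12 at -2.45. They also held Mrps6 at -2.76, Mrps21 at -2.15 and Mrps27 at -1.66, counterparts of bacterial S6 and S21 and a protein added in mitochondria. The higher calls included Mrpl20 at 2.04 (SE 0.422, limma adjusted p = 0.0127), Mrps11 at 1.97, Mrpl45 at 1.46, Mrps24 at 1.42 and Mrpl53 at 1.38. WT 4, the dimmer WT array, was the highest WT heart in 14 of the 15 genes called higher and the lowest in 6 of the 13 called lower. The remaining RORasg/sg arrays were all dimmer ones, so genotype and array brightness ran together in this subset.

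Among the 5 brighter arrays, which hold 4 WT hearts and RORasg/sg 1 alone, 6 genes passed the test (1 higher and 5 lower), beside 4.28% of all genes (1.29% higher and 2.99% lower); the lone RORasg/sg heart is assumed there to vary like the WT hearts. Mrps5 was higher at 2.16, and Mrpl36 at -1.11, Mrpl44 at -1.11, Mrps14 at -1.09, Mrps22 at -1.0 and Mrpl1 at -0.89 were lower. These values are of the probe used. In both other Mrpl44 probes RORasg/sg 1 (-1.88 and -2.25) lay above the brighter WT hearts (highest -2.01 and -2.27). For Mrpl1, a further probe had RORasg/sg 1 above those hearts (-2.60, highest WT -2.89). Another Mrpl1 probe had it below (-0.04, lowest WT 0.47). Called in both subsets were 2 genes, Mrpl36 and Mrpl44, and neither kept its sign: without RORasg/sg 1 they stood at 1.09 and 1.29. Of the 24 genes named by rule, 17 had the opposite sign in the brighter arrays to that in all 9, among them Mrpl4 (0.74), Mrpl38 (0.43), Mrpl12 (0.78) and Mrpl20 (-0.84). Mrpl54 stayed negative (-0.26) and Mrps11 positive (0.45), neither past the threshold. With array weights estimated by limma, which gave less weight to the arrays that varied most, 48 genes passed (25 higher and 23 lower), beside 54.5% of all genes (37.8% higher and 16.7% lower).

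Probes of the same gene often disagreed. Of the 29 genes with more than 1 kept probe, 10 had probes of a single sign and 19 had both signs, and the median range between a gene's probes was 1.2. The widest ranges were those of Mrpl45 (-2.82 and 0.91), Mrpl38 (-2.66 and 0.91), Mrpl43 (-1.68 and 0.86) and Mrps26 (-1.95 and 0.32). For Mrpl38, the probe not used was at -3.28, -3.93, -3.10, -4.16 and -3.20 in WT and at -2.34, -2.82, -2.90 and -2.43 in RORasg/sg, with every RORasg/sg heart above every WT heart, the reverse of the probe used. Among other genes described above, the probes not used differed by -0.78 for Mrpl57, -0.34 for Mrps18c, 0.94 for Mrps36, -2.66 for Mrps23 and -1.38 for Mrpl42. For Mrpl44 they differed by -0.70 and -0.87 (probe used 0.68), and for Mrpl1 by -0.83 and 0.94 (probe used 0.41). A probe of Mrpl49 not used was wholly lower in RORasg/sg, by -1.17, while the probe used differed by 0.48. For Mrps26, a small-subunit protein added in mitochondria, the probe used was at 0.94, 0.85, 1.13, 0.55 and 1.09 in WT and at 1.63, 1.26, 0.65 and 1.38 in RORasg/sg, and its difference of 0.32 (SE 0.400) became -0.25 with no scaling. With the mean of each gene's probes, 33 of 78 genes lay above 0 in place of 43, and Mrpl45, Mrpl43 and Mrps26 turned to -0.95, -0.41 and -0.82.

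**Figure D4:**
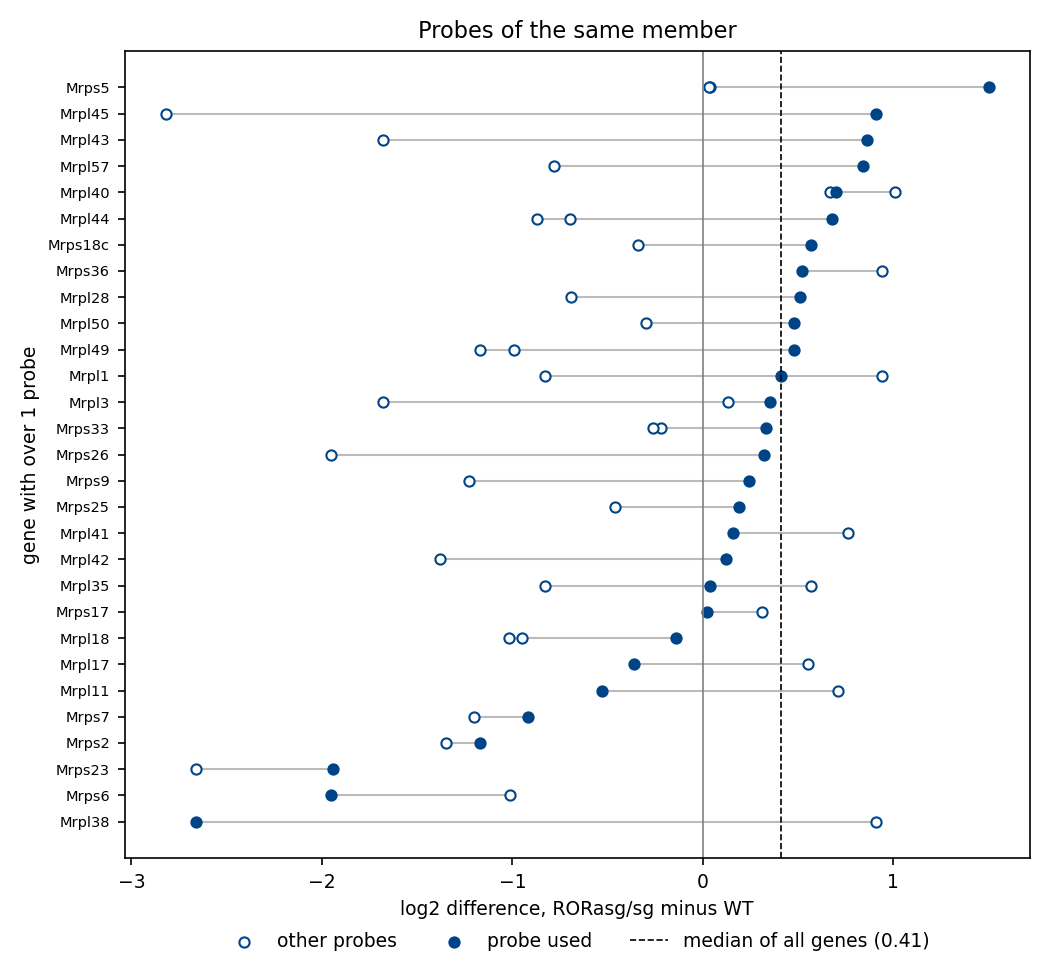
Difference between genotypes on the log2 scale (horizontal axis) for each kept probe of the 29 genes with more than 1, the probe used filled and the others open; the dashed line is the all-gene median of 0.41. In 19 genes the probes fall on both sides of 0.

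In relation to the motifs, the 8 genes with an NRF1 core in the window ranged from -0.84 (Mrpl32) to 0.83 (Mrpl39), with Mrpl17 at -0.36 and Mrpl22 at -0.64. The genes with a ROR core differed by 0.91 (Mrpl53), -0.14 (Mrpl18), -0.11 (Mrpl30) and 0.57 (Mrps18c). None of them passed the test.

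The rest of the mitochondrial translation apparatus was read from the same fit, and 0 genes of any list passed. Ribosomal proteins with other symbols differed by 0.50 (Dap3), 0.32 (Ptcd3), 0.09 (Aurkaip1), -0.04 (Gadd45gip1) and -0.32 (Chchd1). Among 26 assembly and rRNA-modifying factors the median was -0.04, with a mean higher in 2 and lower in 4 at an unadjusted p below 0.05, and in 5 of 26 every RORasg/sg heart lay below every WT heart, beside 1.71% of all genes. Rbfa, a maturation factor of the small subunit, was at 2.28, 2.21, 2.09, 2.0 and 1.79 in WT and at 1.37, -3.21, -3.03 and -1.44 in RORasg/sg, a difference of -3.65 (SE 0.805, limma adjusted p = 0.348). Gtpbp10, a GTPase of large-subunit assembly, differed by -2.44 (SE 0.512, limma adjusted p = 0.342), with 1 of 4 RORasg/sg values well above background. For both, RORasg/sg 1 was also below the WT range, unlike the ribosomal proteins with the lowest means above; Mtg2 (1.16) and Rpusd3 (1.19) were on the higher side.

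Among 16 translation and release factors the median difference was -0.46, with the mean higher in 0 and lower in 2 at an unadjusted p below 0.05 (Mtfmt, which formylates the initiator tRNA, at -1.95, and the initiation factor Mtif2 at -1.56), while the elongation factor Tufm and the recycling factor Gfm2 stood at 0.95 and 0.92. The elongation factors Gfm1 and Tsfm stood at -1.44 and -1.26, with unadjusted p of 0.122 and 0.0971 in limma. Among 20 mitochondrial aminoacyl-tRNA synthetases and amidotransferase subunits the median was -0.86, with 1 higher and 5 lower (Gatc at -3.10 and Ears2 at -1.82 had the smallest p on the lower side), and Nars2 stood at 0.87. Among 15 genes of mitochondrial DNA transcription and replication it was 0.17, with 0 higher and 3 lower. Of these, Tfam, which packages mitochondrial DNA, was at -2.52 and Polg2 at -2.15, while Elac2 was at 0.91 and Tfb2m at 0.76.

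The cytosolic ribosomal proteins, the most similar family, had a median of 0.19 over 78 genes, with the mean higher in 3 (including Rps3 at 1.37) and lower in 4 (including Rpl5 at -2.45 and Rpl14 at -1.16) at an unadjusted p below 0.05. The 36 complex I subunits tested had a median of 0.15, with 0 higher and 2 lower (Ndufv2 at -2.34 and Ndufb8 at -0.93), while Ndufs7 and Ndufb4 stood at 0.94 and 0.91. The 3 families are read against the same all-gene median of 0.41, and differences between them were not tested. Without RORasg/sg 1, 19 cytosolic ribosomal protein genes were called higher and 13 lower, and 12 complex I genes higher and 5 lower, beside 28.5% and 8.89% of all genes.

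Marker genes of other cell types moved between hearts beside these values. The summed level of 8 fibroblast markers was 62.3 to 105 in WT and 90.9 to 225 in RORasg/sg, that of 7 endothelial markers 21.1 to 37.7 and 15.3 to 52.4, and that of 7 smooth muscle and pericyte markers 60.3 to 132 and 62.1 to 122. The 7 macrophage and leukocyte markers summed to 8.69 to 15.1 and 9.49 to 17.9, the 5 adipocyte markers to 0.637 to 3.21 and 1.03 to 1.81, and the 3 erythroid markers tested of 4 to 6.23 to 11.2 and 1.23 to 22.7. Of the 10 cardiomyocyte markers 9 had a lower mean in RORasg/sg and 1 a higher one, with a median difference of -1.14. The mean was lower for 6 of 7 endothelial markers (median difference -1.28), 6 of 7 macrophage and leukocyte markers (-0.65) and 2 of 3 erythroid ones (-0.62). It was higher for 5 of 8 fibroblast markers (0.23), 4 of 7 smooth muscle and pericyte markers (0.08) and 3 of 5 adipocyte ones (0.23). No marker of any list passed the test, none of those tested had a signal of 0, and their part in the values of the ribosomal protein genes was not tested.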

How the data were processed

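Total RNA of 9 hearts, each from its own mouse, was amplified (NuGEN Ovation Pico WTA, 70 ng) and 5 ug of product was labelled with Cy3, per the labels' protocols. Per the file headers, Feature Extraction 12.0.0.7 (protocol GE1_1200_Jun14) extracted the signals. The deposited intensity of each spot is background-subtracted, linear and unscaled between arrays, and the deposited value table of the series holds the same intensity. Control spots and 758 spots with outlier flags were left out, and spots of a probe were averaged. Probes were named through RefSeq accessions (28223 of 41174). Log2 intensity minus the array's 75th percentile was fitted with limma 3.58.1 (eBayes with trend) in R 4.3.3, with genotype as the only term, on 36402 kept probes reduced to 27773 genes. The limma step was tested on simulated data in which hearts were drawn independently and both genotypes had the spread of the WT hearts. The RORasg/sg hearts here had a larger spread, which that test does not cover. The number of arrays limits the precision.

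Genes described singly were the 10 of smallest p in each direction, the Mrps18 paralogues, the 4 with the widest range between probes, and the 2 of smallest p in each direction from each other list, of which a few are not reported here. The family, the lists, the tests and the alternatives were chosen with earlier results of these data known. Alternatives were other scalings, normexp (offset 50, on the median spot signal), filters, probe rules, variance models, slide and replicate blocks, brightness splits and leaving out each array.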

Additional observations from a re-analysis of the deposited data

Results flagged for a closer look

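For the 24 genes described by rule, each genotype's hearts were searched for a value that lay far from its nearest neighbour relative to the group's range (Dixon's criterion). Of 48 groups tested, 8 held such a heart, and in 7 of them it was WT 4, the dimmer WT array. By chance the criterion flags about 1 in 20 independent groups, but these 48 share the same 9 arrays, so that rate does not apply. Over all genes, the median absolute deviation from the WT mean was 0.639 in WT 4 and 0.226 to 0.3 in the other WT arrays. WT 4 was the highest WT heart for Mrps11 (-0.69), Mrpl20 (5.74), Mrpl43 (4.77) and Mrps18c (5.75), and the lowest for Mrpl54 (2.62), Mrpl15 (-1.01) and Mrps35 (1.64). In each of these it lay on the side of its fellow WT hearts toward which the RORasg/sg mean lay. The remaining value was RORasg/sg 1 for Mrpl53 (3.32), below the other RORasg/sg hearts and below every WT heart.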

How the results depend on the processing

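The count of genes passing the test, 0 of 78 with all 9 arrays, was 48 with array weights, 6 in the 5 brighter arrays and 0 to 28 when single arrays were left out, and 0 in the other settings. The family's median less that of all genes, -0.35, became 0.22 within slide 1, -0.80 within slide 2, 0.10 in the brighter arrays, -0.64 in the 4 dimmer arrays, -0.59 with array weights and -0.22 without RORasg/sg 3 or RORasg/sg 4. The count of genes with genotypes apart, 0, became 2 with quantile normalization (2 lower, beside 1.82% of all genes). It became 5 with no scaling (1 higher and 4 lower, beside 0.346% and 1.98%) and 1 with normexp (higher, beside 1.31%). When single arrays were left out it was 0 to 27, the highest without RORasg/sg 1 (13 higher and 14 lower, beside 27.2% and 7.72%). Within slide 1 it was 16 (11 higher and 5 lower) and within slide 2 it was 38 (14 and 24). It was 68 among the 5 brighter arrays (24 higher and 44 lower) and 44 among the 4 dimmer ones (18 and 26). Subsets of fewer arrays separate more easily: of all genes, 8.32% were wholly higher and 15.1% wholly lower within slide 1, 46.3% and 15.5% within slide 2, 15.8% and 49.3% in the brighter arrays, and 42.9% and 15.9% in the dimmer ones. The cause of these shifts was not tested.

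Of 598 values of the named genes under 25 alternatives, 523 kept their sign and side of the threshold, 40 kept their sign and passed it, and 35 changed sign. In the 5 brighter arrays these were Mrpl53 (-0.36), Mrpl39 (-0.38), Mrpl20 (-0.84), Mrpl45 (-0.51), Mrpl57 (-0.66), Mrpl43 (-0.25), Mrps18c (-0.54), Mrpl46 (0.01), Mrpl38 (0.43), Mrpl4 (0.74), Mrpl47 (0.32), Mrpl21 (0.22), Mrpl15 (0.71), Mrps23 (1.13), Mrpl12 (0.78), Mrps18a (0.96) and Mrps18b (0.45). With array brightness as a covariate they were Mrpl20 (-0.09), Mrpl45 (-0.04), Mrpl43 (-0.04), Mrps18c (-0.20), Mrps18a (0.55) and Mrps18b (0.11). With the mean of a gene's probes they were Mrpl45 (-0.95), Mrpl43 (-0.41) and Mrps26 (-0.82), with no scaling Mrps36 (-0.06) and Mrps26 (-0.25), with normexp Mrps23 (0.00), within slide 1 Mrps18a (0.76) and Mrps18b (0.00), in the dimmer arrays Mrps18a (0.57), and with array weights Mrps26 (-0.07). When single arrays were left out, Mrps18a ranged from -0.75 to 0.17 and stood at 0.05 without RORasg/sg 4.

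No pairing of hearts by the replicate numbers shared by the genotypes was seen. Correlations of same-numbered deviations were 0.05, -0.01, -0.33 and 0.39, and 2 of 8 arrays correlated best with their own number. So few values cannot exclude a pairing. With the replicate number as a block, 0 genes of the family passed, the family's median less that of all genes was -0.29, and 9 genes of all passed in place of 1.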
